A study of Mus musculus with 42 samples.

Results

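The replication-dependent histone genes of the mouse were followed through 7 library protocols and 2 RNA fractions of the same liver tissue. They were taken as all genes whose GRCm38 symbol begins with Hist1h, Hist2h, Hist3h or Hist4h, which gave 68 of the 47729 genes in the deposited tables. By family the 68 genes comprised 6 of the linker histone H1, 20 of H2A, 17 of H2B, 12 of H3 and 13 of H4. The annotation gave 65 as protein-coding and 3 as pseudogenes. Chromosome 13 held 54 of the genes between 21715763 and 51203065, chromosome 3 held 10 between 96219865 and 96270132, chromosome 11 held 3 between 58948920 and 58956830, and chromosome 6 held 1.

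RNA came from the livers of 3 untreated mice of genotype Gfi1Cre/+;Rpl22HA/HA, the only genotype in the series. In RiboTag mice Cre recombination puts an HA tag on the ribosomal protein Rpl22, here in cells that express or once expressed Gfi1, so that antibody to HA brings down ribosomes with their mRNA from those cells. Each mouse gave homogenate RNA (input) and precipitated RNA (IP), and every protocol was run on both, giving 42 libraries in 14 groups of 3. The paper puts the age of the mice at 30 days and the sample labels at 1 day, and no comparison here uses it. The protocols were NEB (NEBNext Ultra with poly(A) selection, 4 ng of RNA), NuG (NuGEN Ovation, primed with oligo-dT and semi-random primers, 4 ng), SMTer (SMARTer Stranded Total RNA, random primers with removal of rRNA sequences, 4 ng), SMTseq0.25 and SMTseq4 (SMART-Seq, oligo-dT priming, 0.25 and 4 ng), and TruSeq with poly(A) selection from 4 ng (Tru4) or 70 ng (Tru70). The SMTseq libraries were sequenced at another centre, so kit and centre cannot be told apart there.

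Replication-dependent histone genes supply the bulk of histone protein that packages new DNA during S phase. Their mRNAs are the metazoan mRNAs that usually end without a poly(A) tail: a short stem-loop near the 3′ end is bound by the protein SLBP, and the RNA is cut just behind it. Some of these genes also make longer transcripts that read past the stem-loop, or spliced ones, to an ordinary poly(A) site, mostly in cells that do not divide. A protocol that selects or primes on poly(A) and one that primes at random therefore start from different parts of this mRNA population.

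The stem-loop is shown because it is the 3′ end that sets these mRNAs apart from others. A search of the annotated transcript sequences for the 16-base element, with 6 paired bases on each side of a 4-base loop, found it in 42 of the 68 genes (61.8%), against 107 of 21901 protein-coding genes (0.489%) in the whole annotation. The 107, matched anywhere in a transcript, include members, and 65 of them were not members. Only annotated transcripts were searched, so a member without a match need not lack the element. Capitals mark the 16 bases and lower case the 5 bases on each side, read 5′ to 3′ on the strand of the gene in GRCm38.
Hist1h2ao: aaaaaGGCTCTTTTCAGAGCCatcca
Hist2h2aa2: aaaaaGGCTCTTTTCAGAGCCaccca
Hist3h2a: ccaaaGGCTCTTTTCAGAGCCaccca
Hist1h1c: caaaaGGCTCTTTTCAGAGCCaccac
Hist1h2bk: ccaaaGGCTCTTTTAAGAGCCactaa
Hist2h2ac: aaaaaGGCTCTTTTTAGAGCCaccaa
Hist1h4d: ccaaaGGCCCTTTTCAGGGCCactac
Hist1h4i: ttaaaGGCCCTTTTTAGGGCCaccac
Hist1h4j: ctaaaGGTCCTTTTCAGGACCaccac
H2afx: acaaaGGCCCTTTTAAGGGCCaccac

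The capitals lie at chr13:21810898-21810913 (plus strand) in Hist1h2ao, chr3:96239784-96239799 (minus) in Hist2h2aa2, chr11:58955172-58955187 (plus) in Hist3h2a, chr13:23739512-23739527 (plus) in Hist1h1c, chr13:22036300-22036315 (plus) in Hist1h2bk, chr3:96220418-96220433 (minus) in Hist2h2ac, chr13:23581950-23581965 (plus) in Hist1h4d, chr13:22040966-22040981 (minus) in Hist1h4i and chr13:21735437-21735452 (plus) in Hist1h4j. The variant histone gene H2afx, at chr9:44335240-44335255 (plus), is no member and is shown for comparison, since it codes for the H2A variant of the DNA damage response and also carries the element. The 16 bases of Hist1h2ao were found in 24 members, and the other versions in 7, 6, 2, 2 and 1. The 4-base loop always began with 3 T and ended in C, A or T. Annotated transcripts of 25 members were spliced or ran more than 100 bases past the stem-loop, and 14 of these also had a poly(A) signal in their last 50 bases. They are called extended genes below, and the 5 spliced ones were all H2B.

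The genes resemble each other, which limited what the deposited tables could hold: a median of 49.9% of the 60-base words of a member, the length to which reads had been trimmed, occurred in another gene of the annotation. The share was 72.4% in H2A, 61.4% in H3, 48.8% in H2B, 31.6% in H4 and 0.937% in H1, and it was 26.3% over the extended genes against 66.5% over the rest. In addition, 19 of the 20 H2A genes overlapped a microRNA gene annotated on the opposite strand. The exon counts left out reads with several alignments or on overlapping features, and the RPKM values appear to have counted reads for more than one feature. Among 1856 pairs of a histone gene and a library with at least 1 RPKM, 1097 (59.1%) had an exon count of 0. The 7 members Hist1h2aj, Hist1h2ao, Hist1h2ap, Hist1h2bq, Hist1h2br, Hist2h2bb and Hist2h3c1 had no exon count in any library. Reads on near-identical genes cannot be assigned, so RPKM values of such genes are not independent of each other, and a sum over them counts some reads more than once.

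Total exon counts per library ran from 464199 to 45466334, the lowest being those of SMTer (464199 to 762562), where 76.8 to 93.8% of the uniquely aligned reads fell outside the counted exons against 3.18 to 27.6% elsewhere. SMTer was therefore compared on RPKM. In NEB, NuG, SMTer and Tru4 the 8 libraries of mouse 3 were used under the fraction opposite to their label, as the study's own tally of detected genes places them. Alb, the albumin gene of hepatocytes, had 641 RPKM in the library labelled NEB input of mouse 3, against 3617 and 4505 in NEB input of the other mice. With this exchange the summed RPKM of 10 hepatocyte markers ran from 2074 to 12375 in input and from 413 to 2385 in IP, and was lower in IP in 7 of 7 protocols. Markers of several blood cell types were higher in IP in all 7, with 288 to 5491 RPKM in input and 6990 to 231183 in IP over 6 erythroid genes, and 6.54 to 34.8 against 233 to 1993 over 9 Kupffer cell genes. Gfi1 itself never exceeded 0.228 RPKM.

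How much histone mRNA a library showed depended on the protocol. The summed RPKM of the 68 genes was lowest in NuG input, with 119, 113 and 102 in mice 1, 2 and 3. Tru4 input held 334, 262 and 246, and Tru70 input 541, 443 and 392. SMTseq4 input held 1156, 1126 and 1507, and SMTer input 1533, 866 and 2342. SMTer input of mouse 2 thus lay below the SMTseq4 inputs, and both protocols overlapped. In IP, SMTer reached 3486, 2958 and 10441, and SMTseq4 1370, 1654 and 3252. The 3 SMTer IP libraries did not all lie above those of SMTseq4, since its mouse 2 fell below SMTseq4 IP of mouse 3. The same 68 genes gave another order as CPM, the exon counts scaled to the library total, which ran from 36.7 in SMTer input of mouse 2 to 439 in SMTseq4 IP of mouse 1.

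**Figure D1:**
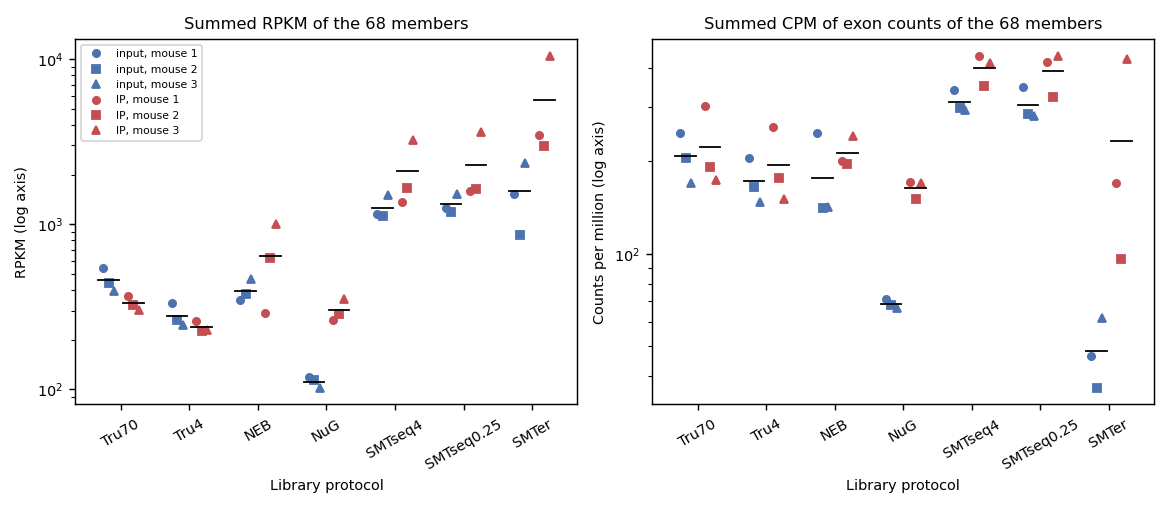
Summed level of the 68 histone genes in each of the 42 libraries, by protocol and fraction, as RPKM and as CPM of exon counts on log axes; points are single libraries of mice 1 to 3 and bars are group means. Summed RPKM ran from 102 in NuG input of mouse 3 to 10441 in SMTer IP of mouse 3.

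Different genes led in different protocols. Over the 12 Tru4 and Tru70 libraries the highest mean RPKM were those of Hist2h2aa2 (54.7) and Hist2h2aa1 (49.4), a near-identical H2A pair on chromosome 3, followed by Hist1h1c (30.3), which codes for a linker histone and has an extended transcript. Over the 6 NuG libraries the H2B genes Hist1h2bl (23.6), Hist1h2bg (20.6) and Hist1h2bk (15.1) came first. Over the 6 SMTer libraries the 10 highest were all Hist1h2a genes, core histone H2A genes of the large chromosome 13 cluster, from Hist1h2ae at 162 RPKM to Hist1h2ai at 212. In the Tru4 and Tru70 order the only gene of that cluster coding for H2A among the first 10 was Hist1h2al, at 22.3 RPKM. The number of histone genes with at least 1 RPKM was 59 to 66 per library in SMTer, 43 to 53 in the SMTseq protocols, 26 to 54 in Tru4 and Tru70, 21 to 60 in NuG and 19 to 48 in NEB.

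**Figure D2:**
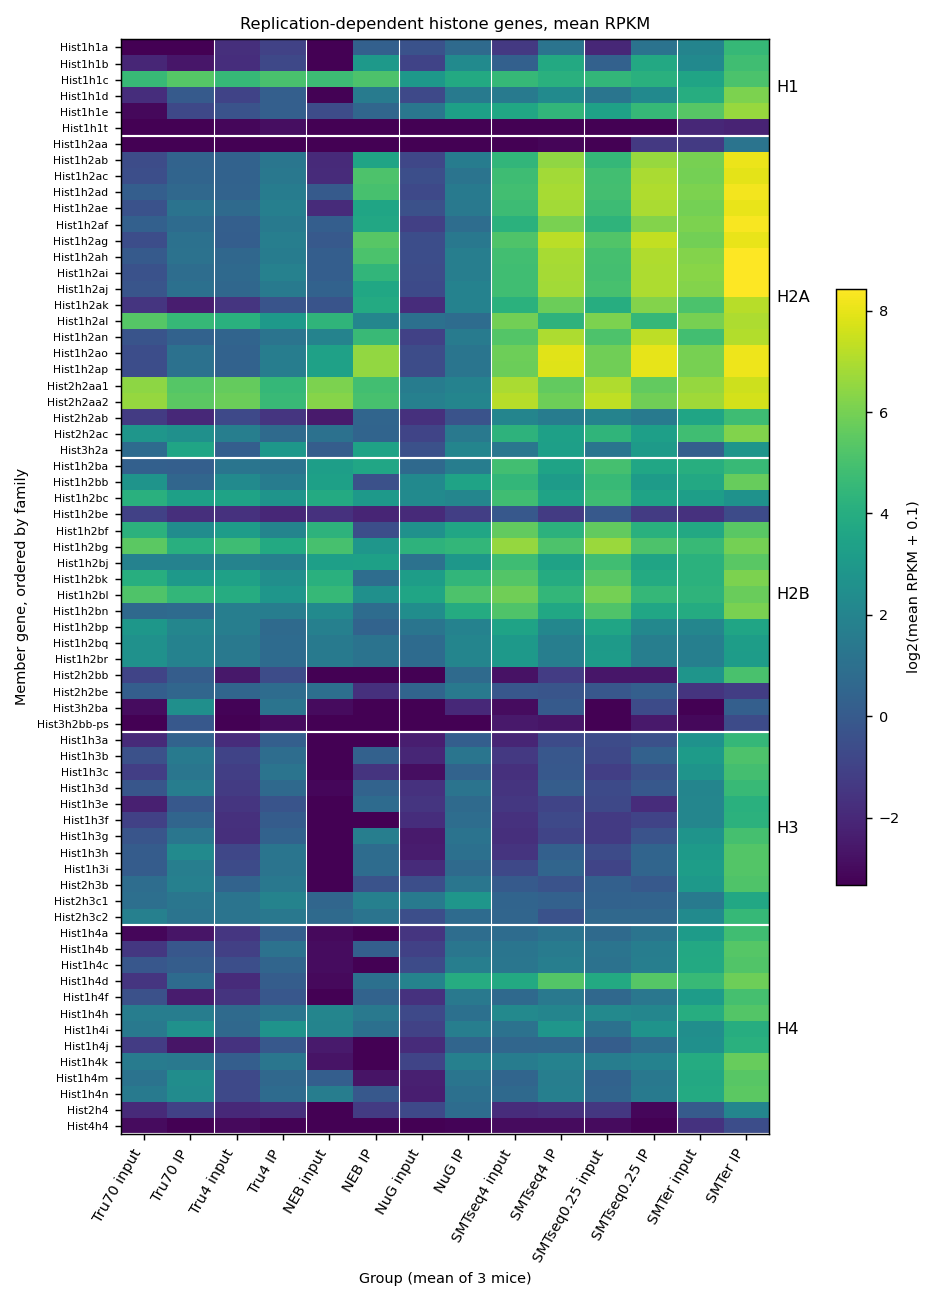
Mean RPKM of each histone gene in each of the 14 groups (n = 3), on a log2 colour scale with genes in rows ordered by family. The Hist1h2a rows other than Hist1h2aa and Hist1h2al are bright in the SMTer and SMTseq columns and dark in Tru4, Tru70 and NuG.

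Hist1h2ao, at chr13:21810465-21810944, is given as an example of the Hist1h2a genes. In Tru4 input it had 1.11, 1.46 and 1.01 RPKM in mice 1, 2 and 3. In NuG input it had 0.991, 0.552 and 0.154, and in SMTseq4 input 41.3, 45.6 and 84.6. SMTer input gave 56.5, 33.2 and 103. Every SMTer and SMTseq4 value lay above every Tru4 and NuG value. In NEB the Hist1h2a genes did not go together. Hist1h2ao stood at 8.37, 17.1 and 6.41 in NEB input, and it and Hist1h2ap were higher than in Tru4 input by 2.80 each (log2, limma on RPKM), while Hist1h2ab, Hist1h2ac and Hist1h2ae were lower, at -2.46, -2.39 and -2.77.

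Against Tru4, SMTer showed more of nearly every histone gene. In input, 59 of the 61 members that passed the filter on low RPKM were higher and 0 were lower, where 21.4% of all genes tested were higher and 38.5% lower. A gene high in SMTer alone could pass this filter, so the count and the median over members that passed are a description only. The median difference over them was 5.09 (log2) against -0.32 over all genes tested. H2A and H4 genes differed most, with medians of 6.63 and 5.65, then H1 with 5.24 and H3 with 4.92, and H2B with 1.62. In IP, 61 of 62 were higher and 0 lower, where 24.1% of all genes were higher and 30.1% lower, and the median was 5.48.

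Hist1h2ao differed by 6.64 ± 0.217 (log2, SE) between SMTer and Tru4 input (limma adjusted p = 9.46e-06) and by 7.58 ± 0.384 in IP (limma adjusted p = 6.33e-05). Hist2h2aa2, which was already high in Tru4 input at 66.8, 44.5 and 53.3 RPKM, stood at 116, 60.3 and 144 in SMTer input. Its difference of 2.02 ± 0.171 was smaller than that of Hist1h2ao (limma adjusted p = 0.000214). The extended gene Hist1h1c had 14.3, 7.02 and 13.8 RPKM in SMTer input against 29.5, 22.6 and 18.2 in Tru4 input. After centring of the libraries its difference was 0.10 ± 0.191 (limma adjusted p = 0.666), and it was not called. Centring moved all genes: without it the median of all genes was -1.45 instead of -0.32 in input, 47 members were higher and 2 lower. With 1 mouse left out a gene had to reach 1 RPKM in Tru4 as well to pass, and then 32 of 34, 34 of 37 and 35 of 36 members tested were higher in input without mice 1, 2 and 3, with medians of 3.40, 3.41 and 3.5. In IP 53 of 54, 52 of 56 and 50 of 54 were higher, with medians of 5.65, 5.27 and 5.20.

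The exon counts of SMTer gave another picture, with 0 members higher and 1 lower of 7 tested in input and 10 higher and 1 lower of 17 tested in IP (edgeR). Hist1h2ao, for one, had 0 exon counts in every library. The part of the strand setting in this loss was not tested. A fixed set of 13 other RNAs without a poly(A) tail was also followed, among them the small nuclear RNA Rn7sk and the RNA parts of the RNases P and MRP. In SMTer 9 of 9 tested were higher than in Tru4 input, with a median of 6.63 (log2), where 1502 of all 7035 genes were higher. In IP 7 of 7 tested were higher, with a median of 6.57, where 1933 of all 8014 genes were. A gene high in SMTer alone could pass the filter, so these counts and medians are a description only.

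SMTseq4 lay above Tru4 in most histone genes as well, although its cDNA is primed with oligo-dT. On exon counts, 6 of the 13 members tested in input were higher and 0 lower with edgeR, where 22.0% of all genes were higher and 24.5% lower, and 7 of 19 were higher and 0 lower in IP, where 12% of all genes were higher and 12.9% lower. Several of those higher in input passed the filter through SMTseq4: Hist1h2ae had 11, 0 and 1 counts in Tru4 input and Hist1h1b 13, 7 and 1. On RPKM, where more members passed in the same way, limma called 41 of 49 higher and 4 lower in input against 29.3 and 33.8% of all genes, and 39 of 54 higher and 2 lower in IP against 19.0 and 26.8%. All 19 H2A genes tested were higher in input, with a median of 3.65, while all 3 H3 genes tested were lower. Of the other RNAs without a poly(A) tail, 0 of 2 tested in input and 0 of 3 in IP were higher in SMTseq4 on exon counts (edgeR), and 2 were lower in each. The values of these RNAs in SMTer were on RPKM and over more genes, so the protocols cannot be set side by side there.

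The exon counts of Hist1h4d, an H4 gene at chr13:23581598-23582735 whose annotated transcript is among the extended ones, differed widely between protocols. Tru4 input had 4, 0 and 1 counts, and Tru4 IP had 18, 0 and 22. SMTseq4 input had 147, 180 and 348 and SMTseq4 IP 495, 539 and 915. NuG, whose libraries were shallower than those of Tru4, had 9, 12 and 13 in input and 46, 38 and 29 in IP. The 3 SMTseq4 values lay above all Tru4 values in each fraction, with edgeR adjusted p = 3.94e-05 in input and 0.000558 in IP. No fold change is given in input, since Tru4 held 0 to 4 counts. Hist1h1b, coding for a linker histone, was likewise higher in SMTseq4 IP, with 389, 354 and 754 counts against 17, 13 and 16 in Tru4 IP, a difference of 5.65 ± 0.478 (log2, edgeR adjusted p = 9.58e-05). For the spliced gene Hist1h2bc, at chr13:23684199-23692908, the counts were 5736, 5042 and 6033 in SMTseq4 input and 3792, 4667 and 3301 in Tru4 input, a difference of 1.0 ± 0.135 (edgeR adjusted p = 0.000376).

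**Figure D3:**
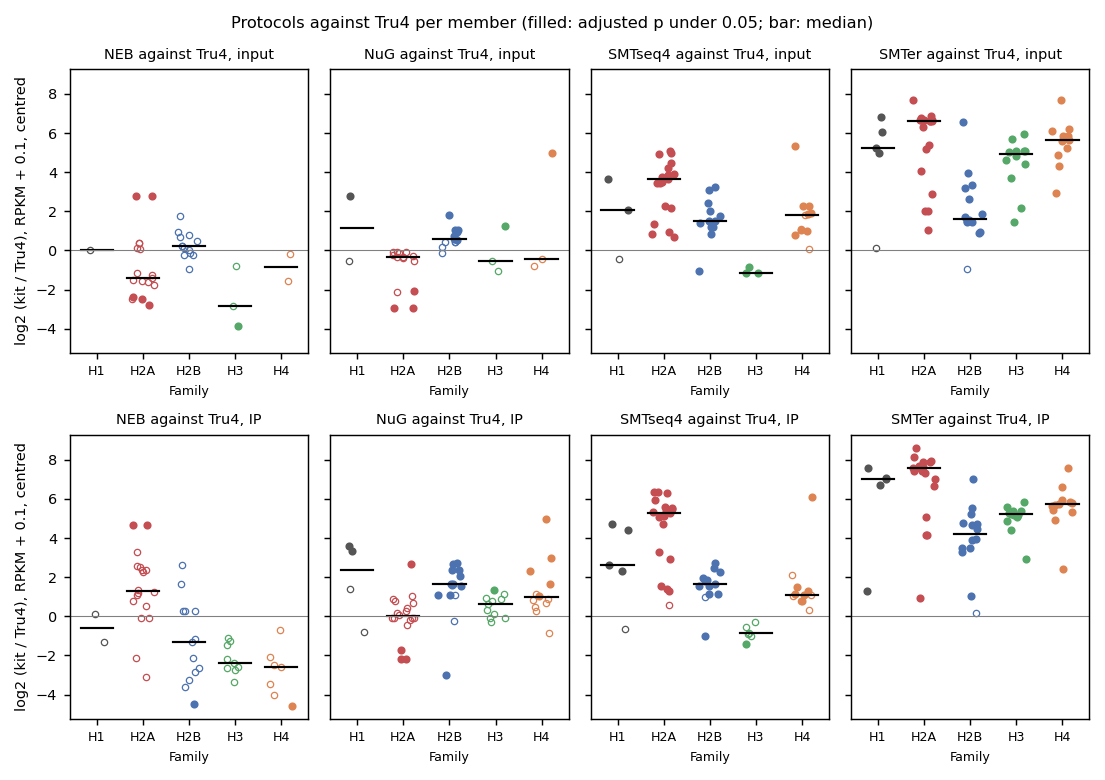
Log2 difference of each histone gene from Tru4 in input and IP, from limma on log2(RPKM + 0.1), for NEB, NuG, SMTer and SMTseq4, grouped by family, with points filled where adjusted p was under 0.05 and bars at family medians. In input SMTer had a median of 5.09, SMTseq4 of 1.92, NuG of -0.10 and NEB of -0.20.

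NuG did not move the family one way. On exon counts, 6 of 12 members tested were higher and 3 lower than in Tru4 input, where 24.3% of all genes were higher and 26.6% lower, and 7 of 15 were higher and 4 lower in IP, where 24.1 and 25.7% were (edgeR). A gene high in 1 of the protocols alone could pass the filter, so such counts are a description only. Hist1h2bl had 0.535, 1.05 and 0.723 CPM in NuG input and 0 in every Tru4 input. As RPKM it was present in every Tru4 input, above NuG input of the same mouse. After centring limma put it 0.72 (log2) higher in NuG input (adjusted p = 0.0349). Hist1h4i, called lower, had 0.134, 0 and 0 CPM in NuG input against 1.05, 1.74 and 1.33 in Tru4 input. On RPKM, 10 of 35 were higher and 3 lower in input against 26.6 and 35.9% of all genes, and 20 of 59 higher and 4 lower in IP against 31.7 and 25.1% (limma). The families differed in their counts: 7 of 13 H2B genes were higher in input and 11 of 14 in IP, whereas 0 of 14 H2A genes were higher in input and 3 were lower. Besides Hist1h4d, the linker histone gene Hist1h1e was higher on exon counts in both fractions, by 2.89 in input and 3.64 in IP, while Hist1h1c was lower, at -0.68 and -1.14, and Hist1h2bc at -0.49 and -1.09. On RPKM neither Hist1h1c nor Hist1h2bc was called lower in input, at -0.53 and -0.14, nor Hist1h1c in IP, at -0.80. Without mouse 1, 2 or 3 the members higher in input numbered 2, 3 and 3, and those lower 1 without mouse 1 and 0 without mouse 2, and in IP 4 were higher without mouse 3 and 2 lower without mouse 2. The other RNAs without a poly(A) tail were lower in NuG in 2 of 2 genes tested on exon counts in each fraction (edgeR).

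Few members were called between NEB and Tru4. On exon counts, 0 of 9 members were higher and 1 lower in input, where 1.36% of all genes were higher and 7.71% lower, and 0 of 15 were higher and 2 lower in IP, where 0.653 and 4.14% were (edgeR). At an unadjusted p under 0.05 there were 1 member in input and 2 in IP, the same numbers as those called. DESeq2 called 0 of 42 members higher and 2 lower in input, where 742 of all 21989 genes were higher and 1911 lower. In IP it called 0 of 52 higher and 6 lower, where 478 of all 21631 genes were higher and 1971 lower. Limma on RPKM called 2 of 36 higher and 4 lower in input, where 5.31% of all genes were higher and 3.51% lower, and 2 of 49 higher and 2 lower in IP, where 0.923 and 0.850% were. The values that were not called spread widely: in IP the RPKM median over members was -1.16 (log2) against -0.24 over all genes, with all 9 H3 and all 7 H4 genes tested below 0 (medians of -2.41 and -2.60) and a median of 1.28 over 18 H2A genes. The member lower in input was Hist3h2a, with 0 counts in all 3 NEB inputs against 12, 17 and 20 in Tru4 (edgeR adjusted p = 0.0231). Those lower in IP were Hist2h3c2 and Hist3h2ba, each with 0 counts in all 3 NEB libraries. Hist2h3c2 had 40, 16 and 37 counts in Tru4 IP and Hist3h2ba 58, 46 and 63. Without any 1 mouse, Hist3h2a was no longer called in input, nor was either gene without mouse 1 or mouse 2 in IP. Hardly any gene was called in those fits. Among all genes tested, 0, 0 and 1 were called in input without mice 1, 2 and 3, and 0 in IP without mouse 1 or mouse 2. With the mouse as a block the counts of lower members were 0 in input and 0 in IP, where 100 of 14210 and 13 of 14558 genes were lower. NEB libraries also scattered more than the others: Hist1h1b had 577, 0 and 42 counts in the 3 NEB IP libraries.

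IP against input was compared within each protocol. In bulk RNA a higher level in IP cannot separate more tagged cells of a type from more RNA per cell. The SMTer libraries showed 60 of 61 members higher and 0 lower (limma), where 32.7% of all genes were higher and 20.5% lower, and a median of 2.09 (log2) against 0.13 over all genes. Families ranged from 1.44 in H2B to 2.23 in H3. The call rests on the exchange of fractions, since with the fractions as labelled 0 members were higher. The same held for all genes, of which 0 of 5580 tested were higher or lower as labelled. It also rests on the scaling, since without centring 37 members were higher, where 757 of all 5580 genes were. On exon counts no member of SMTer could be tested.

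In the other protocols edgeR tested few members. In NuG 2 of 10 were higher and 1 lower, where 24.0 and 20.9% of all genes were. In SMTseq0.25 7 of 16 were higher and 1 lower, against 19.8 and 17.1% of all genes. In SMTseq4 10 of 18 were higher and 1 lower, against 30.4 and 28.7%. Without mouse 3 the members higher in SMTseq0.25 numbered 3. The shares of higher members in both SMTseq protocols stood above those of all genes. A gene high in IP alone could pass the filter on low counts, so such counts and shares are a description only. In Tru4 3 of 17 were higher and 1 lower, against 25.9 and 24.2% of all genes. In Tru70 2 of 11 were higher and 2 lower, against 18.1 and 16.7%, and with the mouse as a block 1 was lower, while without mouse 2 there were 0 higher and 0 lower and without mouse 3 1 higher and 0 lower. In NEB 0 of 5 were higher and 0 lower, against 5.82 and 5.34%, with 2 at an unadjusted p under 0.05. DESeq2 called 2 of 23 higher and 1 lower in NEB, where 1514 of all 15083 genes were higher and 1088 lower. With the fractions as labelled, NuG and Tru4 each had 0 members higher and 0 lower. Of all genes, 0 of 12406 tested in NuG and 0 of 15868 in Tru4 were then called. The gene lower in NuG, SMTseq0.25, SMTseq4 and Tru4, and 1 of the 2 lower in Tru70, was the same one, Hist1h2bc.

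Hist3h2a rose in IP most regularly. It lies at chr11:58954685-58956830, codes for an H2A protein and is among the extended genes. Tru4 input had 12, 17 and 20 counts and Tru4 IP 112, 145 and 205. SMTseq4 input had 44, 25 and 89 counts and IP 203, 268 and 280, and NuG input had 19, 6 and 7 counts and IP 85, 46 and 36. Inputs and IPs did not overlap in any of these protocols. The difference was 3.17 ± 0.407 (log2) in Tru4 (edgeR adjusted p = 0.000195), 2.35 ± 0.363 in SMTseq4 (0.000327), 2.86 ± 0.648 in SMTseq0.25 (0.00899), 1.42 ± 0.528 in NuG (0.0413) and 4.20 ± 1.44 in Tru70 (0.0486), all with edgeR. The call was lost in NuG without any 1 mouse, at 1.29 to 1.60, and in Tru70 without mouse 2 (3.78) or mouse 3 (3.97). In NEB the IP libraries had 214, 236 and 136 counts and the inputs 0 (edgeR adjusted p = 0.0837). On RPKM limma called it higher in all 7 protocols, by 1.86 in NuG to 5.0 in NEB.

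Hist1h2bc fell in IP. Its counts were 3792, 4667 and 3301 in Tru4 input and 1902, 1713 and 2102 in Tru4 IP, and 5736, 5042 and 6033 in SMTseq4 input and 2861, 2710 and 2308 in IP. Inputs and IPs did not overlap in either as raw counts, but the libraries differed in depth. As CPM, Hist1h2bc overlapped between the fractions in Tru4 and was only just apart in SMTseq4. It differed by -0.96 ± 0.312 (log2) in Tru4 (edgeR adjusted p = 0.0285), by -0.95 ± 0.326 in Tru70 (0.0492), by -0.98 ± 0.228 in SMTseq4 (0.00401), by -0.98 ± 0.253 in SMTseq0.25 (0.0162) and by -1.54 ± 0.211 in NuG (4.05e-05). It lost its call in Tru4, Tru70 and SMTseq0.25 when mouse 2 or mouse 3 was left out, at -0.81 and -0.82, -0.78 and -0.87, and -0.88 and -0.92, with the direction kept. The annotated transcript of Hist1h2bc is spliced, and on RPKM it was the only gene that was lower in at least 1 protocol and higher in none. Hist3h2ba, an H2B gene beside Hist3h2a, went the other way, with 0, 1 and 0 counts in Tru4 input and 58, 46 and 63 in IP (edgeR called it higher in Tru4, Tru70 and SMTseq4, but not in Tru70 without mouse 2).

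Few H1 and H4 genes were called on exon counts. Of the H1 genes tested with edgeR, 4 of 5 were higher in SMTseq4, 2 of 5 in SMTseq0.25, 1 of 3 in NuG, 0 of 5 in Tru4, 0 of 1 in Tru70 and 0 of 1 in NEB. Of the H4 genes, 2 of 5 were higher in SMTseq4, 1 of 4 in SMTseq0.25, 1 of 5 in Tru4, 0 of 2 in NuG, 0 of 3 in Tru70 and 0 of 1 in NEB, and none of either family was lower. Hist1h1b had 50, 25 and 41 counts in SMTseq4 input and 389, 354 and 754 in IP, a difference of 3.75 ± 0.374 (edgeR adjusted p = 1.83e-05), and it was also called in SMTseq0.25 (3.68) and NuG (2.39, but not without mouse 1 or mouse 2). Hist1h1c, the H1 gene with the most counts, differed by -0.28 to 0.49 in the 6 protocols tested with edgeR and was called in none of them, while limma called it higher in SMTer by 1.70 ± 0.154 (adjusted p = 0.000258). Hist1h4i, an H4 gene, had 33, 79 and 47 counts in Tru4 input and 196, 167 and 183 in IP, a difference of 1.93 ± 0.453 (edgeR adjusted p = 0.00628), and 2.52 ± 0.358 in SMTseq4 (0.000192). It was not called in SMTseq0.25 (2.34, adjusted p = 0.170), Tru70 (1.13, 0.266) or NEB (-0.87, 0.940).

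RPKM covered more members and set the families apart. Limma called 28 of 47 members higher in NuG IP and 2 lower, where 33.9% of all genes were higher and 15.2% lower. It called 29 of 50 higher and 14 lower in SMTseq0.25 (27.0 and 24.4% of all genes), 27 of 49 higher and 15 lower in SMTseq4 (30.8 and 30%), 22 of 47 higher and 10 lower in Tru4 (31.2 and 25.8%), 5 of 46 higher and 5 lower in Tru70 (26.9 and 20.4%) and 4 of 33 higher and 2 lower in NEB (11.9 and 9.13%). Over the 7 protocols 46 members were higher in at least 1 and lower in none, 15 were higher in 1 and lower in another, 6 were called in none, and 14 were higher in at least 5. SMTer, with 60 of 61 members higher, weighs on this tally. All 15 members called in both directions were higher in SMTer, and some of the 46, such as Hist1h1c and Hist1h3a, were higher in SMTer only. The same tally over all genes was not made, and a gene high in 1 fraction alone could pass the filter.

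H2B genes went in different directions in different protocols. On RPKM all 12 H2B genes tested in SMTseq4 were lower in IP, by -0.98 to -0.75 (log2), in SMTseq0.25 11 of 12 were lower, and in Tru4 6 of 14. In NuG 7 of 13 were higher and 1 lower, and in SMTer 12 of 13 were higher. The IP to input ratio of summed H2B RPKM, paired by mouse, was 0.383 ± 0.0362 (SD, n = 3) in SMTseq4, 0.366 ± 0.0176 in SMTseq0.25 and 0.614 ± 0.123 in Tru4, but 2.12 ± 0.547 in NuG and 2.77 ± 1.45 in SMTer. All 3 mice were below 1 in the first 3 protocols and above 1 in the other 2. These ratios were taken without the centring of the limma fits, so shifts of whole libraries enter them and their sizes cannot be set beside the limma differences. H2B genes share 48.8% of their 60-base words at the median, and Hist1h2bc alone held 5042 to 6033 of the exon counts in SMTseq4 input, so the like values of the 12 genes are not 12 separate measurements. On exon counts edgeR called 1 of 3 H2B genes higher and 1 lower in SMTseq0.25, and 1 of 4 higher and 1 lower in SMTseq4. The higher ones were Hist1h2be (adjusted p = 0.0130) and Hist3h2ba (0.000610), which did not pass the RPKM filter there. Hist1h2bc was the lower one in both.

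Hist1h2bg, the H2B gene with the highest mean RPKM over Tru4 and Tru70, went the way of the other H2B genes called in SMTseq4 and SMTer and was not called in NuG. It had 98.8, 98.0 and 91.7 RPKM in SMTseq4 input and 31.1, 35.5 and 39.8 in IP, a difference of -0.90 ± 0.183 on the centred log2 scale (limma adjusted p = 0.00483). In SMTer it had 26.6, 15.7 and 31.1 in input and 39.9, 32.5 and 117 in IP, a difference of 1.39 ± 0.228 (limma adjusted p = 0.00280). In NuG it had 20.4, 20 and 16.6 in input and 23.6, 22.6 and 20.4 in IP, which after centring was a difference of -0.42 ± 0.152 (limma adjusted p = 0.0624) and not a call. Inputs and IPs did not overlap in SMTseq4 or SMTer, in opposite directions.

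The H2A genes did not move as one. The Hist1h2a genes other than Hist1h2al had IP to input ratios of summed RPKM above 1 in 3 of 3 mice in all 7 protocols, with 3.85 ± 0.459 (SD, n = 3) in SMTseq4, 4.09 ± 0.711 in SMTseq0.25, 4.12 ± 1.14 in SMTer, 2.27 ± 0.579 in Tru4, 2.72 ± 1.44 in Tru70, 10.2 ± 11.5 in NuG and 16.1 ± 15.1 in NEB. These ratios, too, were taken without centring. Hist1h2ao had 139, 176 and 399 RPKM in SMTseq4 IP against 41.3, 45.6 and 84.6 in input, a difference of 2.52 ± 0.362 after centring (limma adjusted p = 0.000975), and 2.21 ± 0.298 in SMTer (0.00126) and 1.12 ± 0.318 in Tru4 (0.0233). Hist2h2aa1, Hist2h2aa2 and Hist1h2al, in contrast, were lower in IP in 4 protocols and higher in SMTer. Hist2h2aa2 had 66.8, 44.5 and 53.3 RPKM in Tru4 input and 26.1, 26.2 and 22.2 in IP, a difference of -1.25 ± 0.250 (limma adjusted p = 0.00595). In SMTer it had 116, 60.3 and 144 in input and 129, 114 and 378 in IP, a difference of 1.04 ± 0.217 (0.00768), and there the fractions overlapped.

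The difference between NuG and Tru4 in their IP to input change was tested itself. On exon counts 0 of 18 members tested differed in either direction, where 0.141% of all genes were higher and 0.353% lower (edgeR), with 1 member at an unadjusted p under 0.05 and none by DESeq2. On RPKM limma called 2 of 60 higher and 1 lower, where 1.95% of all genes were higher and 1.72% lower. The 3 were the H2B genes Hist1h2bl, Hist1h2bf and Hist3h2ba.

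**Figure D4:**
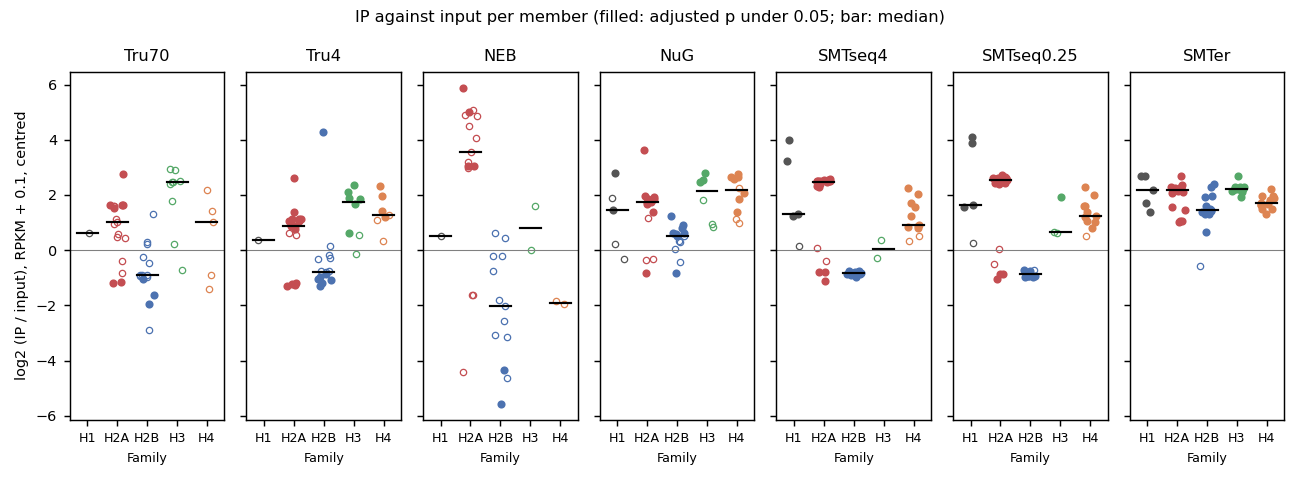
Log2 difference between IP and input of each histone gene in each protocol, from limma on log2(RPKM + 0.1), grouped by family, with points filled where adjusted p was under 0.05 and bars at family medians. The H2B genes that passed the RPKM filter lie below 0 in both SMTseq protocols and above 0, with 1 exception, in SMTer.

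A pair of extended genes, Hist1h2bc and Hist1h1c, held most of what could be counted in input outside SMTer. In Tru4 input Hist1h2bc had 3792, 4667 and 3301 and Hist1h1c 2142, 2244 and 1455 of the 6428, 7471 and 5221 exon counts on histone genes in mice 1, 2 and 3. The extended genes together made up 87.7 to 97.2% of the summed histone exon counts as group means outside NuG IP and SMTer, 78.3 ± 6.85% (SD, n = 3) in NuG IP, and 52.5 ± 4.21% and 40.2 ± 3.20% in SMTer input and IP. Their share of the summed RPKM was 18.4 to 46.0%, in which the sums count shared reads more than once. In SMTer against Tru4 input the median difference on RPKM was 3.67 over the 20 extended members tested and 5.21 over the 41 others, and in IP 4.67 over 22 and 5.76 over 40. The 2 sets also differ in family and in shared sequence, and the part of these was not tested.

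The mice differed within protocols. For the 14 Hist1h2a genes other than Hist1h2al, the summed RPKM of mice 1, 2 and 3 was 976, 1242 and 2714 in SMTseq4 IP, 1155, 1242 and 3096 in SMTseq0.25 IP and 2060, 1859 and 6658 in SMTer IP. Input gave 292, 314 and 639 in SMTseq4 and 715, 427 and 1297 in SMTer. Mouse 3 was thus the highest in these 3 protocols in both fractions. In Tru4 the 3 IP libraries held 38.2, 27.4 and 39.2 and the inputs 16.1, 16.6 and 14.1, and in Tru70 IP 23.1, 20.4 and 18.7. Mouse 3 was the highest in 9 of the 14 groups. With 1 mouse on that side the difference between mice has no replicate, and repeat libraries of 1 mouse are not replicates of it.

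**Figure D5:**
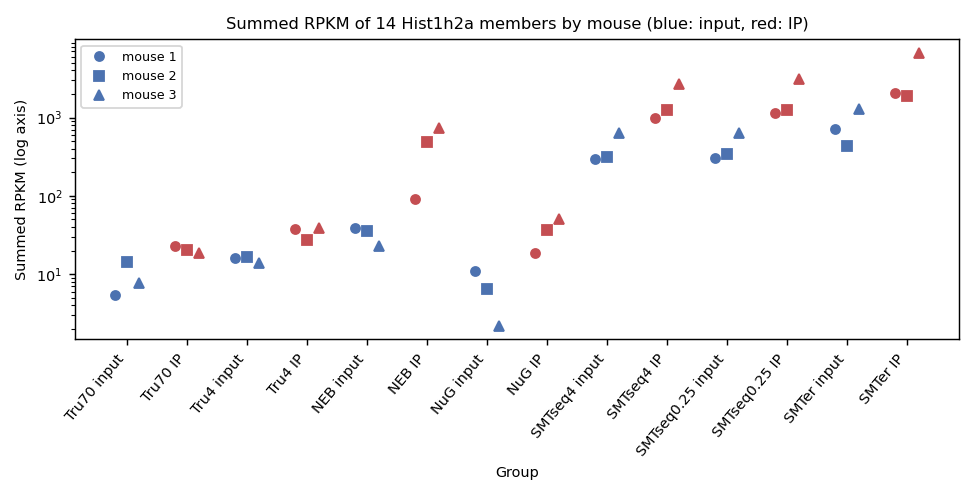
Summed RPKM of the 14 Hist1h2a genes other than Hist1h2al in each library, by protocol and fraction, on a log axis with mice told apart by marker. Mouse 3 lies highest in both fractions of SMTer, SMTseq0.25 and SMTseq4 and not in Tru70.

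Genes that act with these histones were followed as fixed lists. Of the 26 S phase and mitosis genes, none was lower in IP in any protocol, and with edgeR 19 of 26 were higher in Tru4, 16 of 26 in SMTseq4, 12 of 26 in Tru70, 12 of 25 in NuG, 9 of 26 in SMTseq0.25, 1 of 25 in NEB and, with limma, 3 of 3 in SMTer. Their summed RPKM ran from 4.56 to 27.0 in input and from 14.1 to 71.1 in IP. Replication-independent histone genes supply histones outside S phase, and most of their mRNAs have poly(A) tails. H2afx, which carries the stem-loop shown above, is among them. In IP 5 of 11 tested were higher in Tru4, 5 of 10 in SMTseq4, 5 of 6 in SMTer and 3 of 9 in NuG, and 0, 1, 0 and 0 were lower. In SMTseq0.25, Tru70 and NEB 5 of 11, 3 of 10 and 1 of 9 were higher and 0 lower. Factors of histone mRNA 3′ end formation were higher in 7 of 20 tested in Tru4, 9 of 19 in SMTseq4, 8 of 19 in SMTseq0.25, 5 of 18 in NuG, 4 of 18 in Tru70, 1 of 16 in NEB and 1 of 2 in SMTer, and lower in 1, 3, 2, 1, 2, 0 and 0. Of all genes 25.9% were higher in Tru4, 30.4% in SMTseq4, 19.8% in SMTseq0.25, 24.0% in NuG, 18.1% in Tru70, 5.82% in NEB and 32.7% in SMTer, so the shares of these factors lay near the background in NuG, Tru70 and NEB. Slbp, which codes for the protein that binds the stem-loop, rose by 1.12 (log2) in Tru4 IP (edgeR adjusted p = 0.00241), by 1.47 in Tru70 and by 0.92 in SMTseq0.25, and was at 2.21 in NEB, 0.81 in NuG and 0.65 in SMTseq4, where it was not called. Erythroid and other blood cell markers moved with all these lists, and their part in the histone values was not tested.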

How the data were processed

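Liver input and IP RNA of 3 mice was profiled with 7 protocols. The authors trimmed reads to 60 bases, aligned them with TopHat to mm10 (GRCm38) and deposited exon counts per gene, raw and without reads that aligned more than once or to overlapping features. The strand setting of counting is not given in the sources used here. The authors also deposited RPKM, scaled to feature length and mapped reads, and its shares of reads on features, 100 to 119%, exceed the whole, so reads seem to count for more than one feature.

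Members and gene lists were chosen with earlier results of these data known. Samples were grouped by their labels, and the fraction of mouse 3 was exchanged in NEB, NuG, SMTer and Tru4 (8 libraries). Counts were tested with edgeR 4.0.16 (quasi-likelihood, TMM, filterByExpr) in R 4.3.3. RPKM of SMTer, and of the other protocols as an alternative, was tested with limma 3.58.1 on log2(RPKM + 0.1), centred per library, over genes with at least 1 RPKM in at least 3 libraries. A fold change on this scale understates the change of low genes. P-values were adjusted by Benjamini-Hochberg over all genes tested, with calls at 0.05. DESeq2 1.42.0, other filters, scalings and pseudocounts, the fractions as labelled, each mouse left out and the mouse as a block were alternatives. The methods were tested on simulated data. The replicate number marks the mouse, and deviations from the group means of input and IP libraries of 1 mouse correlated by 0.110 to 0.547 across genes. Depth ran from 464199 to 45466334 exon counts per library, and 3 counts, taken as the floor, were 6.46 CPM in the shallowest and 0.0660 CPM in the deepest. This floor covers counting error only. Named were the 10 highest members by RPKM in TruSeq, NuG and SMTer, up to 3 of the largest called changes per direction and comparison, and the extended genes (45 in all). Hist1h2bc, Hist3h2a and Hist2h2aa2 met this rule. Gene models came from GENCODE M21, which holds 70 members. Hist1h2bh and Hist1h2bm were not analysed here.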

Additional observations from a re-analysis of the deposited data

Results flagged for a closer look

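The change from input to IP differed between NuG and Tru4 for 3 members by an interaction term on log2(RPKM + 0.1). For Hist1h2bl the NuG change was higher by 2.0 (log2, limma adjusted p = 0.00843), with 13.5, 13.5 and 8.92 RPKM in NuG input and 28.6, 36.8 and 40.4 in IP, against 18.4, 16.1 and 11.5 in Tru4 input and 5.93, 8.23 and 7.38 in IP. For Hist1h2bf it was higher by 1.54 (limma adjusted p = 0.0409), with 6.19, 6.55 and 5.29 RPKM in NuG input and 12.6, 8.60 and 15.8 in IP, against 10.1, 9.65 and 6.72 in Tru4 input and 2.85, 4.95 and 3.79 in IP. For Hist3h2ba the difference was -3.96 (limma adjusted p = 0.0235), with 0 to 0.37 RPKM in the 6 NuG libraries and 2.88, 1.86 and 1.90 in Tru4 IP. On exon counts edgeR could not test Hist1h2bf, which did not pass the filter. It called neither of the others. Hist1h2bl stood at -3.29 ± 1.74 (log2, SE) there, opposite in sign to its RPKM value, and Hist3h2ba at -2.24 ± 19.0.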

How the results depend on the processing

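The tests had 3 mice a group, and exon counts reached few members. Leaving out the fraction exchange (fractions as labelled), members higher and lower for IP against input were 0 and 0 in NuG and in Tru4. In SMTer 0 were higher. In these IP against input fits 0 of all genes tested were called. Against Tru4, NuG had 1 and 0 members in input and 1 and 0 in IP, and SMTseq4 input had 3 higher. NEB input had 0 members lower against Tru4, where 0 of all 14605 genes were lower, and Hist3h2a turned to 0.11 (log2). Under limma on RPKM members higher and lower were 2 and 4 for NEB against Tru4 input, 41 and 4 for SMTseq4 input and 39 and 2 for its IP, 2 higher for NEB IP, 10 higher for NuG input and 20 for NuG IP, and for IP against input 4 and 2 in NEB, 28 and 2 in NuG, 29 and 14 in SMTseq0.25, 27 and 15 in SMTseq4, 22 and 10 in Tru4, 5 and 5 in Tru70, and 2 and 1 for NuG minus Tru4. DESeq2 gave 2 of 42 members lower for NEB against Tru4 input and 6 of 52 in IP. For IP against input in NEB it gave 2 of 23 higher and 1 lower. Without a filter on low counts these were 0 lower in NEB input, 0 in NEB IP, and 4 higher for NuG IP against input. DESeq2 size factors gave 1 lower in Tru70. SMTer against Tru4 on exon counts gave 0 higher and 1 lower in input and 10 and 1 in IP, and SMTer IP against input 0 higher. Without centring, 2 were lower in SMTer input and 37 higher in SMTer IP against input, and without a filter on low RPKM 1 was lower in SMTer IP. The cause of these shifts was not tested.

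The replicate block, pairing libraries of 1 mouse, gave 0 lower for NEB against Tru4 in input, 0 in IP and 1 lower for IP against input in Tru70, and moved no other count by over 1.5 times.

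The ratio of summed histone CPM, IP to input, was 1.30 ± 0.452 (SD, n = 3) in NEB, 2.39 ± 0.171 in NuG, 4.40 ± 2.26 in SMTer, 1.30 ± 0.234 in SMTseq0.25, 1.30 ± 0.120 in SMTseq4, 1.12 ± 0.121 in Tru4 and 1.06 ± 0.146 in Tru70. On summed RPKM it was 2.73 in NuG, 1.68 in SMTseq0.25, 1.60 in SMTseq4, 0.858 in Tru4 and 0.731 in Tru70, so that its direction turned in both TruSeq protocols. With the fractions as labelled the CPM ratio was 1.67 in NuG and 2.14 in SMTer, and as CPM of protein-coding genes alone 1.34 in NuG. Against Tru4, the ratio of summed histone CPM in input was 1.0 ± 0.176 in NEB, 0.405 ± 0.0522 in NuG, 0.290 ± 0.112 in SMTer and 1.82 ± 0.162 in SMTseq4, and in IP 1.16 ± 0.412, 0.881 ± 0.230, 1.35 ± 1.29 (0.603 to 1.75 leaving out 1 mouse) and 2.15 ± 0.544. On summed RPKM the ratios were 1.46 and 2.77 for NEB input and IP, 1.27 for NuG IP, 5.81 and 24.1 for SMTer and 4.63 and 8.94 for SMTseq4, which turned the direction for SMTer input and NuG IP. With the fractions as labelled the CPM ratios were 1.22 for NEB, 0.629 for NuG and 1.10 for SMTer input, and as CPM of protein-coding genes alone 0.808 for NuG input and 1.01 and 4.12 for SMTer input and IP.

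Leaving out 1 mouse at a time gave ranges of members higher of 2 to 3 and lower of 0 to 2 for NuG against Tru4 input, 4 to 7 and 2 to 3 for NuG IP, 32 to 35 higher for SMTer input, 0 lower for NEB input and 0 to 2 lower for NEB IP. For IP against input they were 1 higher in NuG, 0 to 1 lower in SMTer, 3 to 6 higher and 0 to 1 lower in SMTseq0.25, 0 to 1 lower in Tru4, and 0 to 2 higher and 0 to 2 lower in Tru70. For NEB against Tru4, 0 of all genes were called without mouse 1 or mouse 2, in input and in IP.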
